A study of Homo sapiens with 9 samples.

Results

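The transcripts described here are the spliced RNAs of 10 snoRNA host genes: GAS5, SNHG1, SNHG3, SNHG5, SNHG6, SNHG7, SNHG8, SNHG12, SNHG15 and ZFAS1. They were taken by gene name from a table of RNA sequencing counts that held 20878 genes, using for each gene the transcript with the highest total count over the 9 libraries. ZFAS1 is listed there under its older name ZNFX1-AS1 and was matched through its RefSeq accession. The libraries came from SW480, a human colorectal cancer line that lacks functional APC, and from 2 lines derived from it, with 3 libraries in each of 3 groups. The group called SW480 is the parental line, CONTROL carries the empty pEF vector, and APC carries pEF with myc-tagged APC, a tumour suppressor that acts in the degradation of beta-catenin. All 3 lines grew in RPMI with thioglycerol, hydrocortisone, insulin and foetal calf serum, and only CONTROL and APC also received G418, at 1.5 mg/ml. Plates received 200000 APC cells or 335000 cells of the other lines, and polyadenylated RNA was extracted 72 h later. Each construct is represented by 1 derived line plated in triplicate, so the p-values here reflect variation among plates of 1 line. The construct cannot be told apart from other differences between the derived lines. Nor can it be told apart from the lower number of APC cells plated or, against SW480, from G418.

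Small nucleolar RNAs (snoRNAs) guide the chemical modification of other RNAs, mainly ribosomal RNA: box C/D snoRNAs direct ribose methylation and box H/ACA snoRNAs pseudouridylation. In vertebrates most are cut out of introns, and in noncoding host genes the spliced exons form a by-product RNA with little or no coding capacity. Many hosts start with a terminal oligopyrimidine (TOP) tract like that of ribosomal protein mRNAs. The spliced RNAs of several, GAS5 the best known, are degraded by nonsense-mediated decay while they are translated, so their level also follows translation.

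Total counts over genes ranged from 16456738 to 19358025 per library, so that 3 counts correspond to 0.155 to 0.182 CPM, the count relative to the library total. Counts of APC itself rose with the construct, 2.94-fold above SW480 and 3.02-fold above CONTROL (log2 fold changes 1.56 ± 0.05 and 1.60 ± 0.05, SE, with edgeR adjusted p = 4.31e-25 and 2.59e-25), and they do not separate the construct from the cells' own gene. Of 10 epithelial markers 7 were tested. Of these, 4 were higher and 3 lower in APC than in SW480, beside 35.6% and 36.9% of all genes tested. KRT8 had 45128 to 55811 counts per library, EPCAM had 662 to 941 in SW480 and CONTROL and 6453 to 6919 in APC, CDX2 had 370 to 537 and 244 to 283 in the same order, and CDX1 had at most 1. Markers of other cell types were mixed. CD3E had at most 2 counts, PECAM1 at most 4 and COL1A2 at most 7, whereas COL1A1 had 177 to 254, CD14 9 to 28 and VWF 12 to 21, and PDGFRB had 51 to 80 in SW480 and CONTROL and 1 to 2 in APC. Their part in the results below was not tested. SW480 replicate 1 stood furthest from its group, with a chi-square per degree of freedom of 5.16 and 5.61 against the other SW480 libraries, where the other replicate pairs gave 1.36 to 3.23.

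The host genes lie on chromosomes 1 (GAS5, SNHG3 and SNHG12), 4, 6, 7, 8, 9, 11 and 20. RefSeq places 36 snoRNA genes inside them, 25 named as box C/D and 10 as box H/ACA. GAS5 contains 11 and SNHG1 9, SNHG12 contains 4 and ZFAS1 3, and the other 6 contain 1 or 2 each. Of the 9 counted transcripts that could be matched to GENCODE, that of GAS5 has 12 exons and that of SNHG1 10, and the others have 3 to 6. The sequences from 15 bases before the annotated start to the 20th base from it are shown, because many snoRNA hosts start with a TOP tract. They are given for the 8 hosts found in the RefSeq promoter table (GRCh38.p14). Capitals mark the unbroken run of C and T from the start, 5′ to 3′ on the gene's strand.
GAS5 (chr1:173869026-173869060, minus strand): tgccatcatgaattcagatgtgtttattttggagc
SNHG1 (chr11:62855866-62855900, minus strand): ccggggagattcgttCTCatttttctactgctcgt
SNHG3 (chr1:28505928-28505962, plus strand): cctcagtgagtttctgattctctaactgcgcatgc
SNHG5 (chr6:85678714-85678748, minus strand): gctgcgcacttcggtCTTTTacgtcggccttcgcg
SNHG7 (chr9:136728165-136728199, minus strand): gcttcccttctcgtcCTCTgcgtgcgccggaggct
SNHG8 (chr4:118278747-118278781, plus strand): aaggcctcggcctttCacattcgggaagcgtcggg
SNHG12 (chr1:28581854-28581888, minus strand): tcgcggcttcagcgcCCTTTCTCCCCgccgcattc
ZFAS1 (chr20:49278627-49278661, plus strand): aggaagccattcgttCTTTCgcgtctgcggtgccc
SNHG6 and SNHG15 had no entry in that table. A start at C followed by at least 4 further C or T was present in 3 of these 8, SNHG5, SNHG12 and ZFAS1. The same was found for 4.07% of 35116 promoters and for 60.3% of 78 cytosolic ribosomal protein genes. SNHG7 and SNHG1 start with C in runs of 4 and 3, and GAS5 and SNHG3 do not start with a pyrimidine. The annotated start need not be the start used in these cells or that of the counted transcript. In the 300 bases from 250 before the start, the motif CACGTG was found for SNHG7 alone (7.26% of all promoters) and CTTTGAT, searched on both strands, in 0 of the 8 (2.62% of all promoters).

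Levels between genes were compared per transcript length, as deposited RPKM (counts scaled to transcript length and library total). SNHG5 was the most abundant host in every group, at 406 ± 45.5 RPKM in SW480, 520 ± 13.2 in CONTROL and 549 ± 32.7 in APC (SD, n = 3). SNHG12 was the least abundant, at 10.7 ± 1.21, 10.0 ± 1.01 and 19.3 ± 0.769 RPKM. Between these ends the hosts kept to 31.9 to 162 RPKM in SW480, and all but SNHG12 were above 84% of the genes tested in every group. In SW480 and CONTROL the order from the top was SNHG5, GAS5, ZFAS1, SNHG1 and SNHG6, and the libraries of neighbouring genes in this order did not overlap. In APC, ZFAS1 (177 ± 5.63 RPKM) and GAS5 (171 ± 5.54 RPKM) overlapped. SNHG15 stood next to SNHG7 or SNHG8 in SW480 and CONTROL with overlapping libraries, and below SNHG3 without overlap in APC, at 33.4 ± 0.143 against 49.3 ± 2.14 RPKM. The spread of SNHG5 in SW480 was the widest in absolute terms, with SW480 replicate 1 the lowest.

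**Figure D1:**
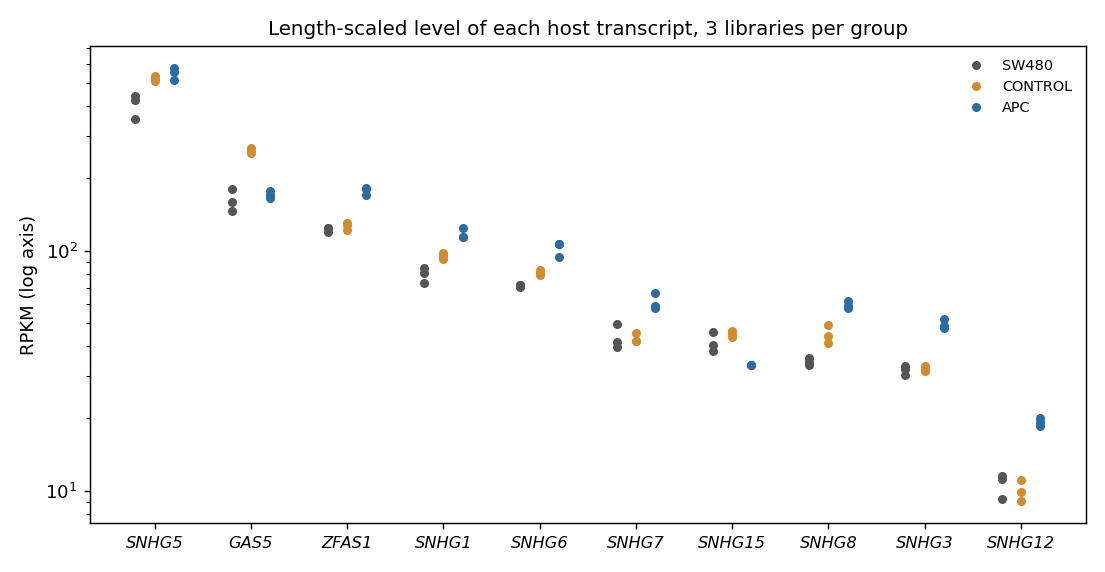
Level of each host transcript as RPKM on a log axis, with 1 point per library and 3 libraries in each of SW480, CONTROL and APC. SNHG5 stands at the top and SNHG12 at the bottom in all 3 groups, and GAS5 is highest in CONTROL.

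All 10 transcripts passed the filter on low counts and were tested with all other genes (14255 in all). Below, levels are TMM-scaled CPM per library in the order of replicates 1 to 3, and fold changes come from 1 edgeR fit of the 9 libraries with Benjamini-Hochberg adjustment. Against SW480, 8 hosts were higher in APC, 1 was lower and 1 did not pass. Of all genes tested 35.6% were called higher and 36.9% lower in this comparison, 72.5% in all. The same 9 hosts were those whose APC and SW480 libraries did not overlap, as in 73.1% of all genes. Against CONTROL, 7 were higher in APC, 2 were lower and 1 did not pass, where 34.8% of all genes were called higher and 35.4% lower, 70.2% in all. The 9 called hosts again had libraries that did not overlap, as in 73.4% of all genes. Over the 10 hosts the median change was 0.56 and 0.39 on the log2 scale in these comparisons, beside −0.01 for all genes in each. The comparisons share the APC libraries. Together the 10 transcripts took 0.0785% to 0.0875% of gene counts in SW480, 0.0984% to 0.101% in CONTROL and 0.112% to 0.113% in APC, without overlap between groups.

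**Figure D2:**
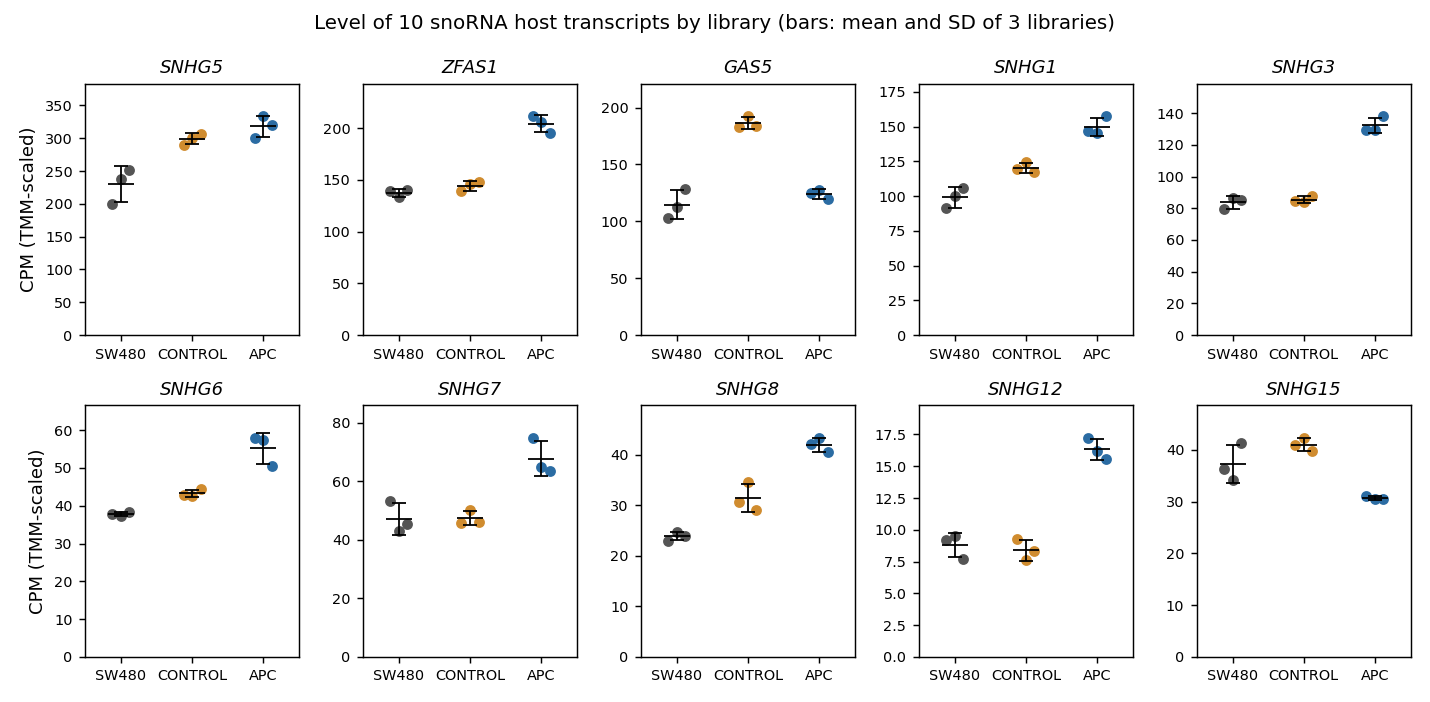
CPM of each host transcript by library, with 3 points per group and the mean and SD as bars, on axes that start at 0. In SNHG1, SNHG3, SNHG6, SNHG7, SNHG8, SNHG12 and ZFAS1 all APC libraries lie above both other groups. The share of all genes with this pattern was not counted. GAS5 is highest in CONTROL, and SNHG15 is lowest in APC.

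The largest increases were measured for the least abundant host. SNHG12, which carries 3 H/ACA and 1 C/D snoRNA genes, stood at 9.21, 9.48 and 7.73 CPM in SW480, 9.24, 7.62 and 8.31 in CONTROL and 17.2, 16.2 and 15.6 in APC. All APC libraries were above all others, while SW480 and CONTROL overlapped. It exceeded SW480 by 1.86-fold (log2 fold change 0.89 ± 0.09) and CONTROL by 1.94-fold (0.96 ± 0.09), with edgeR adjusted p = 1.88e-10 and 5.29e-11. SNHG8, host of the H/ACA snoRNA gene SNORA24, stood at 23.0, 24.7 and 24.0 CPM in SW480, 30.7, 34.5 and 29.1 in CONTROL and 42.1, 43.3 and 40.5 in APC. The 3 groups did not overlap, with CONTROL between the others. SNHG8 was 1.75-fold and 1.34-fold higher in APC than in SW480 and CONTROL (0.81 ± 0.06 and 0.42 ± 0.06, edgeR adjusted p = 1.42e-13 and 2.03e-07).

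SNHG3, ZFAS1 and SNHG7 were higher in APC by similar amounts against either group. SNHG3, host of the SNORA73 genes, whose RNA acts in the early cleavage of ribosomal RNA, stood at 79.3, 86.8 and 84.9 CPM in SW480, 84.4, 84.2 and 87.8 in CONTROL and 129, 130 and 138 in APC. Its log2 fold changes were 0.66 ± 0.04 against SW480 and 0.63 ± 0.04 against CONTROL (edgeR adjusted p = 2.16e-15 and 8.25e-15). ZFAS1, host of the SNORD12 genes and transcribed from the start region of ZNFX1, stood at 139, 133 and 140 CPM in SW480, 139, 146 and 148 in CONTROL and 211, 206 and 195 in APC. Its log2 fold changes were 0.57 ± 0.04 and 0.50 ± 0.04 (edgeR adjusted p = 9.15e-15 and 2.67e-13). SNHG7, host of 2 SNORA17 genes, stood at 53.15, 42.9 and 45.4 CPM in SW480, 45.8, 50.1 and 46.2 in CONTROL and 74.8, 65.0 and 63.6 in APC, with changes of 0.525 ± 0.08 and 0.52 ± 0.08 (edgeR adjusted p = 1.54e-05 and 1.87e-05). For these 3 genes every APC library was above every other library, and SW480 and CONTROL overlapped.

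SNHG1 and SNHG6 were intermediate in CONTROL. SNHG1, the host of 8 C/D snoRNA genes, stood at 91.2, 100 and 106 CPM in SW480, 120, 125 and 117 in CONTROL and 147, 145 and 157 in APC. SNHG6, host of SNORD87, stood at 37.9, 37.2 and 38.3 CPM in SW480, 42.9, 42.6 and 44.4 in CONTROL and 57.9, 57.4 and 50.5 in APC. For both genes the 3 groups did not overlap. Against SW480 the log2 fold changes in APC were 0.59 ± 0.05 for SNHG1 and 0.55 ± 0.05 for SNHG6 (edgeR adjusted p = 7.01e-13 and 6.95e-11), and against CONTROL 0.32 ± 0.05 and 0.35 ± 0.05 (edgeR adjusted p = 3.95e-07 and 5.97e-07).

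SNHG5, host of the SNORD50 genes, stood at 200, 238 and 252 CPM in SW480, 290, 300 and 307 in CONTROL and 301, 333 and 320 in APC. The SW480 libraries lay below the others, and CONTROL and APC overlapped. SNHG5 was 1.38-fold higher in APC than in SW480 (0.47 ± 0.08, edgeR adjusted p = 0.00038), and its difference from CONTROL did not pass (0.09 ± 0.08, edgeR adjusted p = 0.33). With SW480 replicate 1 left out of the fit the latter value was the same and passed (edgeR adjusted p = 0.0274).

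GAS5 and SNHG15 did not follow the others. GAS5, named for its accumulation in growth-arrested cells and host of 10 C/D snoRNA genes, stood at 103, 112 and 128 CPM in SW480, 183, 192 and 184 in CONTROL and 125, 128 and 119 in APC. CONTROL was above both other groups without overlap, and the libraries of APC fell within the range of SW480. GAS5 was 1.50-fold lower in APC than in CONTROL (−0.59 ± 0.06, edgeR adjusted p = 1.75e-07). Against SW480 its difference did not pass (0.11 ± 0.06, edgeR adjusted p = 0.107). That value rested on single SW480 libraries, being 0.04 without replicate 1 (edgeR adjusted p = 0.44) and 0.20 without replicate 3, where it passed (edgeR adjusted p = 0.000287). SNHG15, host of SNORA9, stood at 36.2, 34.2 and 41.4 CPM in SW480, 40.9, 42.3 and 39.8 in CONTROL and 31.2, 30.4 and 30.6 in APC, with all APC libraries below all others. It was 1.21-fold lower than in SW480 (−0.28 ± 0.06, edgeR adjusted p = 0.000175) and 1.33-fold lower than in CONTROL (−0.41 ± 0.06, edgeR adjusted p = 3.76e-07).

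**Figure D3:**
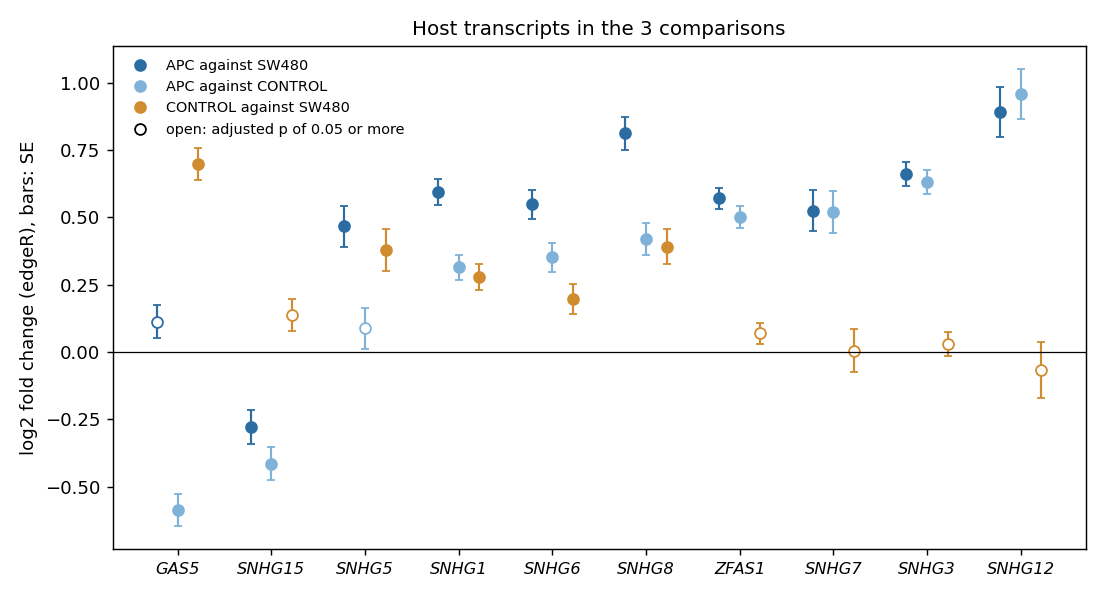
Fitted log2 fold change of each host transcript with its SE in the 3 comparisons, ordered by the change of APC against CONTROL; open points did not pass the threshold. GAS5 has the largest positive value in CONTROL against SW480 and the lowest value in APC against CONTROL, and SNHG12 the highest in both comparisons with APC.

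CONTROL against SW480 sets the line with the empty vector beside its parent. GAS5 had the largest difference, 1.62-fold higher in CONTROL (0.70 ± 0.06, edgeR adjusted p = 6.31e-08). SNHG8, SNHG5, SNHG1 and SNHG6 were also higher, by 0.39 ± 0.06, 0.38 ± 0.08, 0.28 ± 0.05 and 0.20 ± 0.06 (edgeR adjusted p = 6.17e-06, 0.00269, 1.15e-05 and 0.00377). In all, 5 hosts were called higher and 0 lower, where 25.3% of all genes were called higher and 24.7% lower, 50.0% in all. The libraries of these 5 did not overlap between the groups, as in 56.6% of all genes. The other 5, SNHG3, SNHG7, SNHG12, SNHG15 and ZFAS1, had log2 fold changes of −0.07 to 0.14 that did not pass. Of these SNHG15 was nearest to the threshold (edgeR adjusted p = 0.0557), with 0.08 without SW480 replicate 2 (edgeR adjusted p = 0.327) and 0.22 without SW480 replicate 3, where it passed (edgeR adjusted p = 0.00369). CONTROL received G418 and SW480 did not, so the vector, the selection and the derivation of the line cannot be told apart here.

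More than 1 transcript is listed for 4 of the hosts. No source used here says how reads shared by several transcripts were counted. The second transcript of SNHG3 held 99.9% of the count of the chosen one. In ZFAS1 the 858-base transcript held 62.3% to 69.1% of the chosen count in SW480, 66.3% to 68.9% in CONTROL and 65.7% to 67.5% in APC. The 2159-base transcript of SNHG7 held 55.4% to 58.3% in SW480, 52.9% to 59.0% in CONTROL and 58.4% to 62.0% in APC, and the 274-base transcript of SNHG8 57.1% to 62.5%, 56.9% to 58.4% and 56.1% to 61.0%. Of these 3 transcripts, that of SNHG7 alone had ranges in APC and SW480 that did not overlap. These shares were not tested.

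The table also lists the snoRNAs themselves, in libraries made from polyadenylated RNA. Of the 36 snoRNA genes inside the hosts, 2 overlap exons of the host transcripts matched to GENCODE. The 2 inside SNHG3, whose transcript was not matched, were not checked. Whether the reads of these entries came from the snoRNAs or from host RNA was not tested. Of 32 snoRNA genes inside the hosts with a row, 16 had 0 counts in every library, and all 32 together had 401 counts over the 9 libraries, against 160299 for the host transcripts. SNORD22, a box C/D snoRNA inside SNHG1, had the most, with 18, 22 and 21 counts in SW480, 14, 19 and 17 in CONTROL and 14, 18 and 20 in APC. It was the only one that passed the filter, and APC and SW480 were not separated (log2 fold change −0.14 ± 0.27, edgeR adjusted p = 0.653). SNORA61, a box H/ACA snoRNA inside SNHG12, had 4, 2 and 5 counts in SW480, 4, 8 and 0 in CONTROL and 11, 6 and 14 in APC. The APC values were above those of SW480 and overlapped those of CONTROL. The sequences of these 2 entries with the highest counts are given from GENCODE, with capitals marking the D box CTGA near the 3′ end of SNORD22 and the ACA near the 3′ end of SNORA61.
SNORD22: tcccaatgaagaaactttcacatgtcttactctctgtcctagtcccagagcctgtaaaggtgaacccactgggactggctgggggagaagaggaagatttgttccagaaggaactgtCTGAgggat
SNORA61: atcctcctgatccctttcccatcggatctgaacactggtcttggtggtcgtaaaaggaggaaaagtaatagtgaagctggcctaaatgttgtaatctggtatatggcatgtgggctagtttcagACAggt

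Genes that adjoin or overlap the hosts in the RefSeq order did not all move with them. ZNFX1, an RNA helicase-type gene at the start of ZFAS1, was higher in APC by 0.99 ± 0.05 against SW480 and 1.05 ± 0.05 against CONTROL (edgeR adjusted p = 1.24e-19 and 3.01e-20). RCC1, which encodes the exchange factor of Ran and overlaps SNHG3, was higher by 0.33 ± 0.04 and 0.20 ± 0.04 (edgeR adjusted p = 2.14e-09 and 1.47e-05). SLC3A2, which encodes the heavy chain of amino acid transporters and adjoins SNHG1, was lower by 0.25 ± 0.04 and 0.49 ± 0.04 on the log2 scale, while SNHG1 was higher (edgeR adjusted p = 5.97e-07 and 1.61e-13 for SLC3A2). WDR74, a ribosome biogenesis gene on the other side of SNHG1, was higher by 0.32 ± 0.05 and 0.17 ± 0.05 (edgeR adjusted p = 2.3e-06 and 0.00423). TRNAU1AP, which overlaps SNHG12, was lower by 0.40 ± 0.09 and 0.39 ± 0.09 (edgeR adjusted p = 0.000152 and 0.000225). ZBTB37, which overlaps GAS5, did not pass in any of the 3 comparisons. Whether the counting used strand is not given in the sources used here, so reads of overlapping genes, such as TRNAU1AP and SNHG12, may not be separated.

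Other noncoding snoRNA hosts were read in the same way: of 13 listed, 9 were tested. Against SW480 7 were higher and 1 was lower in APC (median log2 fold change 0.53), and against CONTROL 7 were higher and 0 lower (median 0.77). The counts of this and the following lists stand beside shares over all genes of 35.6% higher and 36.9% lower against SW480, and 34.8% higher and 35.4% lower against CONTROL, and no list was tested as a group. SNHG4 was at 38.1 ± 2.96 CPM in APC, 20.7 ± 0.604 in CONTROL and 15.2 ± 0.419 in SW480, SNHG16 at 102 ± 8.44, 57.0 ± 1.74 and 49.7 ± 1.72 CPM, and SNHG20, listed as LINC00338, at 24.8 ± 0.844, 12.3 ± 0.642 and 11.997 ± 0.858 CPM. All 3 were higher in APC than in either group. SNHG11 was the lower one, at 7.49 ± 0.592 CPM in APC, 6.80 ± 0.912 in CONTROL and 9.94 ± 0.256 in SW480. It was lower than SW480 in both APC and CONTROL (edgeR adjusted p = 0.000827 and 6.65e-05), and APC and CONTROL were not separated (0.13 ± 0.11, edgeR adjusted p = 0.292). Of 55 tested long noncoding RNAs named LINC, which include LINC00338, 14 were higher and 25 lower in APC than in SW480. Against CONTROL, 16 were higher and 19 lower. In total these calls lie near the shares of all genes called, 72.5% and 70.2%, and are no result about the LINC transcripts. The difference between the LINC transcripts and the other noncoding hosts was not tested.

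Of the protein-coding snoRNA hosts outside the ribosomal protein genes 24 were tested. Of these, 17 were higher and 4 lower in APC than in SW480 (median 0.19), and 10 higher and 7 lower than in CONTROL (median 0.05). NOP56, a core protein of box C/D particles that itself hosts snoRNAs, was at 468 ± 6.16 CPM in APC, 350 ± 17.7 in SW480 and 284 ± 16.5 in CONTROL. TAF1D, a subunit of the RNA polymerase I selectivity factor, was higher by 0.71 ± 0.05 against SW480 and 0.34 ± 0.05 against CONTROL (edgeR adjusted p = 8.66e-14 and 6.72e-07). EIF4A1, a translation initiation helicase gene, was lower by 0.14 ± 0.04 and 0.22 ± 0.04 (edgeR adjusted p = 0.00188 and 6.67e-06). The cytosolic ribosomal protein genes share the TOP tract. Of 78 tested, 57 were higher and 5 lower in APC than in SW480 (median 0.23). Against CONTROL, 35 were higher and 11 lower in APC (median 0.09). In CONTROL, 51 were higher and 7 lower than in SW480, beside 25.3% and 24.7% of all genes. RPL21 and RPS19 had the values 0.76 ± 0.04 and 0.82 ± 0.04 against SW480, and RPL32 fell by 0.80 ± 0.05. Ribosomal protein genes have many processed pseudogenes that can take their reads, so their values are uncertain.

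**Figure D4:**
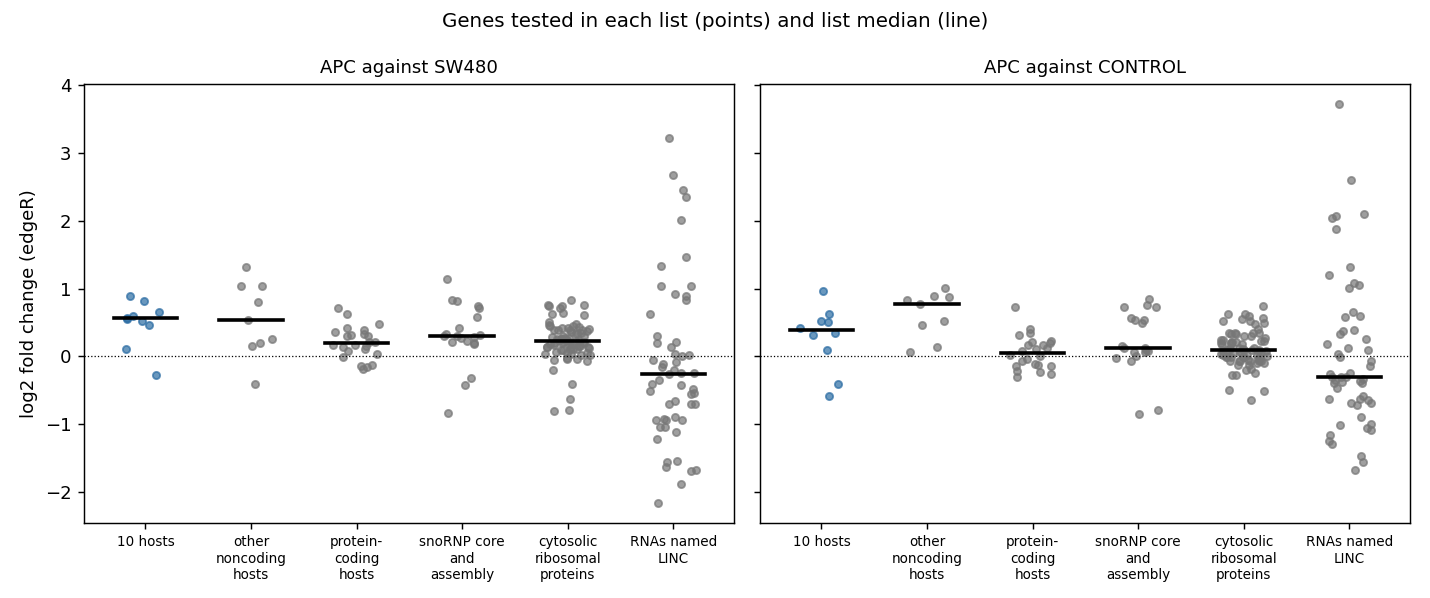
Fitted log2 fold changes of the genes tested in 6 lists, for APC against SW480 and APC against CONTROL, with 1 point per gene and a line at the list median. The 10 hosts have medians of 0.56 and 0.39, the other noncoding hosts 0.53 and 0.77, and the LINC transcripts −0.25 and −0.30.

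Of 20 transcripts that encode components and assembly factors of snoRNA particles, 17 were higher and 3 lower in APC than in SW480 (median 0.30), beside 35.6% and 36.9% of all genes. Against CONTROL 11 were higher and 2 lower (median 0.12), beside 34.8% and 35.4%. NOLC1, a snoRNA chaperone of the nucleolus and Cajal body, was at 624 ± 17.6 CPM in APC, 378 ± 2.24 in CONTROL and 281 ± 12.4 in SW480. NHP2, a core protein of H/ACA particles, was higher by 0.74 ± 0.05 and 0.85 ± 0.05 against SW480 and CONTROL, and NUFIP1, a C/D assembly factor, by 0.83 ± 0.06 and 0.76 ± 0.06 (edgeR adjusted p of 9.1e-14 or lower for SW480 and 9.51e-13 or lower for CONTROL). FBL, the ribose methylase of box C/D particles, was at 479 ± 16.3 CPM in APC, 330 ± 7.93 in CONTROL and 319 ± 10.9 in SW480, and was named after its values were seen. RPAP3 and ZNHIT3, which also act in C/D particle assembly, were lower in APC, by 0.83 ± 0.05 and 0.42 ± 0.06 against SW480 and by 0.79 ± 0.05 and 0.84 ± 0.06 against CONTROL.

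Of 16 transcripts of nonsense-mediated decay factors, 8 were higher and 5 lower in APC than in SW480, and 5 were higher and 5 lower than in CONTROL (medians 0.08 and −0.0006). These counts lie near the shares of all genes called, 72.5% and 70.2%, and are no result about the group. UPF1, the central helicase of the pathway, was at 158 ± 10.1 CPM in APC, 120 ± 2.73 in CONTROL and 120 ± 3.95 in SW480. CASC3, an exon junction protein gene, was lower by 0.31 ± 0.04 against SW480 and 0.57 ± 0.04 against CONTROL (edgeR adjusted p = 4.43e-08 and 2.88e-14). Of 12 other transcripts known as decay targets, 5 were higher and 3 lower in APC than in SW480, and 4 higher and 5 lower than in CONTROL. UPP1, the uridine phosphorylase gene, was higher by 1.31 ± 0.06 and 0.71 ± 0.05, and GADD45B, a stress-response gene, was lower by 0.59 ± 0.06 and 0.88 ± 0.06, each in the same order.

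For each host the most similar of 9839 other genes with a mean of at least 10 CPM was found as the one with the smallest root mean square difference of log2 CPM, each gene centred on its own mean over the 9 libraries. For ZFAS1 this was CYC1, the cytochrome c1 gene, with a difference of 0.029, against a median of 0.292 over all candidates. For SNHG3 it was GCSH, of glycine cleavage (0.034), for SNHG7 NDUFS6, of respiratory complex I (0.036), for SNHG1 C11orf48 (0.040), for SNHG5 GNL2, a nucleolar GTPase gene (0.041), and for SNHG6 POLR3E, an RNA polymerase III subunit gene (0.041). SNHG15 was nearest to EME1, a DNA repair nuclease gene (0.049), and SNHG8 to CTTN, the cortactin gene (0.056). The difference was largest for GAS5, nearest to AP2B1, a clathrin adaptor gene (0.072), and for SNHG12, nearest to NHLRC2 (0.076). Their medians over all candidates were 0.364 and 0.469, against 0.250 for SNHG15. By Pearson correlation with the nearest gene, SNHG15 had the lowest value (0.972), beside 0.976 for GAS5 and 0.986 for SNHG12. AP2B1 stood at 263, 434 and 269.96 CPM on average in SW480, CONTROL and APC. That it was high in CONTROL as GAS5 was follows from its choice by likeness over the same libraries.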

How the data were processed

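Polyadenylated RNA of SW480, CONTROL and APC cells was sequenced in 3 libraries per group. The deposited counts are whole, unnormalised reads per RefSeq transcript, per the file headers and values. The deposited RPKM were made by the authors from the same counts and the transcript lengths: count, length and RPKM agreed in 100% of values to a relative difference under 0.0001. Trimmomatic, TopHat, GATK and build hg19 are named per the submitters' processing notes; the counting tool is not given in the sources used here. Of 65 transcripts with names altered to dates, 62 were repaired by accession. The tests used edgeR 4.0.16 under R 4.3.3 (1 fit of 9 libraries by glmQLFit with robust estimation and glmQLFTest, after filterByExpr and TMM), with a Benjamini-Hochberg threshold of 0.05. The SE is the log2 fold change divided by the square root of F. The procedure was tested on simulated data. The host genes and the gene lists were chosen with earlier results of these data known. Besides the hosts, genes were named from each list, up to 3 per direction by the smaller fold change of the APC comparisons with at least 10 CPM and up to 2 per direction by adjusted p between CONTROL and SW480; SNHG11 follows this rule. Examples in the text come from these, except where stated. Alternatives used DESeq2 1.42.0 and limma 3.58.1. Sequences and gene order come from RefSeq GRCh38.p14 and GENCODE on GRCh38, not hg19, so no coordinates of the counted transcripts are given.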

Additional observations from a re-analysis of the deposited data

How the results depend on the processing

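The number of hosts called was 9 of 10 in APC against SW480, 9 in APC against CONTROL and 5 in CONTROL against SW480. Of all genes, 72.5%, 70.2% and 50.0% were called in the same order, so the last number is no result about the hosts. With no filter on low counts these shares were 57.6%, 55.5% and 38.8%. With each library left out in turn the number of hosts ranged from 9 to 10, 9 to 10 and 5 to 6. Size factors by RLE, all genes without a filter on low counts, DESeq2, summed transcripts, the next transcript (of the 4 hosts that have one), limma with pseudocounts of 1 and 0.1 added to RPKM, fits of 6 libraries and, added after seeing the data, counts without the 45S ribosomal RNA precursor also gave 9 to 10, 9 to 10 and 5 to 6. With the replicate number as a block the counts were 9, 9 and 5. The block changed the edgeR adjusted p of SNHG5 from 0.00038 to 1.25e-12 against SW480 and from 0.33 to 0.065 against CONTROL. Deviations from the group means correlated across genes at −0.0686 to 0.106 for same-numbered libraries. For libraries with different numbers the correlations were −0.0942 to 0.0678. With 3 libraries per group these values do not decide whether the numbers pair the samples.

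Changes of sign occurred in CONTROL against SW480 for SNHG3 and SNHG7, which had not passed there. SNHG3, at 0.03, ranged from −0.0082 (without SW480 replicate 1) to 0.0575 with single libraries left out. SNHG7 moved from 0.0049 to −0.0088 with limma at either pseudocount, and to −0.0594, −0.0205 and −0.0351 without SW480 replicate 2, SW480 replicate 3 and CONTROL replicate 2, with 0.0971 as the highest value (without SW480 replicate 1). Calls were gained in 8 cases, for GAS5 against SW480, SNHG5 against CONTROL and SNHG15 between CONTROL and SW480, 3 of them with no filter on low counts, and no host lost a call. The cause was not tested. Depth was not limiting for the hosts, with at least 124 counts per library. The snoRNA entries had few or no counts in these libraries of polyadenylated RNA, and whether depth was their limit was not tested.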

Other observations

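Of 17 tested genes that regulate TOP mRNAs, 8 were higher and 6 lower in APC than in SW480, and 5 were higher and 7 lower than in CONTROL. These counts lie near the shares of all genes called, 72.5% and 70.2%, and are no result about the group. RPTOR and MLST8, which encode partners of the kinase mTOR, were higher in APC by 0.60 ± 0.05 and 0.38 ± 0.05 against SW480 and by 0.64 ± 0.05 and 0.37 ± 0.055 against CONTROL. RHEB, which encodes the activator of that kinase, was lower by 0.36 ± 0.04 and 0.73 ± 0.04, and TSC1, a subunit of the complex that restrains RHEB, by 0.53 ± 0.06 and 0.41 ± 0.07, in the same order (edgeR adjusted p of 1.95e-06 or lower for these genes).

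PRSS12, the gene of a secreted serine protease, follows SNHG8 in the RefSeq order. It was higher in APC by 4.91 ± 0.46 against SW480 and 5.25 ± 0.49 against CONTROL (edgeR adjusted p = 3.12e-11 and 2.73e-11). SNHG8 had 0.81 ± 0.06 and 0.42 ± 0.06. Between CONTROL and SW480, PRSS12 had −0.33 with a wide SE of 1.10 (edgeR adjusted p = 0.826). Whether low counts in these groups set the size of its changes was not tested. The share of gene counts taken by the 45S ribosomal RNA precursor was 2.69% to 3.5% in SW480, 2.38% to 2.4% in CONTROL and 2.7% to 3.12% in APC, highest in SW480 replicate 1. That library had the lowest value of its group for GAS5, SNHG1, SNHG3, SNHG5 and SNHG8, the highest for SNHG7 and the middle one for SNHG6, SNHG12, SNHG15 and ZFAS1.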
